A study of Mus musculus with 16 samples.

Results

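The transcripts described here encode proteins that hepatocytes release into blood plasma: albumin, other carrier proteins, apolipoproteins, complement, serpins, clotting factors and proteins that bind the extracellular matrix. All 39 listed genes were found among the 23329 genes of the count table, and 34 of them passed the filter on low counts that left 10820 genes for testing. Apoc4, Cfb, C9, Itih1 and Itih3 did not pass it. The genes were picked from this family with their high level in the wild-type vehicle libraries already known, so every comparison that holds those libraries, or the difference made by ivermectin in wild-type cells, is given as a description.

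The libraries came from BetaTC6, a mouse β-cell line derived from an insulinoma on a C57BL/6 background, either wild type or carrying a knockout label for the purinergic receptor gene P2ry1. Cells were grown for 3 days in medium with fetal bovine serum, held in glucose-free Krebs Ringer buffer with albumin protein, and then given 20 mM glucose for 30 min together with DMSO, the vehicle, or with ivermectin, an antiparasitic drug. There were 4 libraries in each of the 4 groups: wild type with DMSO, wild type with ivermectin, labelled knockout with DMSO and labelled knockout with ivermectin. How the knockout was made, and whether the line is 1 clone, are not given in the sources used here.

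Plasma proteins are made mainly by hepatocytes, which transcribe their genes at a high rate under a shared set of transcription factors that includes the FOXA and C/EBP families. Some of these factors, FOXA members among them, are also expressed in pancreatic β-cells, which do not normally make albumin, fibrinogen or prothrombin. A few genes of the family, such as Apoe and Fn1, are transcribed in many tissues, whereas Alb, the fibrinogen genes and the major urinary protein genes are close to liver-specific.

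Library totals were between 893088 and 2013242 counts, and the 4 lowest totals, 893088 to 1064787, were those of the wild-type vehicle group. Levels are given as CPM, counts scaled to library size with TMM factors, and a count of 0 allowed a level of up to 1.497 to 3.37 CPM, taking 3 counts as the limit; such limits and the intervals below cover counting error only. The labels do not say whether replicates were separate cultures, so a p-value measures only the spread between these libraries. P2ry1 was at 94.6 ± 8.57 and 93.1 ± 7.58 CPM in wild-type libraries with vehicle and ivermectin, and at 84.01 ± 8.98 and 85.5 ± 4.95 CPM in libraries labelled knockout (SD, n = 4 each). Its level did not separate the labels, with a log2 difference of -0.17 in vehicle (edgeR quasi-likelihood, adjusted p = 0.245), and the groups are therefore named by their labels. All 20 β-cell markers passed the filter, led by the insulin gene Ins2, and their summed level was 40436 to 45658 CPM in wild-type vehicle libraries and 39293 to 50783 CPM over all 16.

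A group of 5 near-identical genes for α1-antitrypsin, Serpina1a to Serpina1e, are among the 39, and the stretch of coding sequence below shows what tells them apart. It is the reactive centre region of GENCODE transcripts on GRCm38, on the minus strand of chromosome 12, over 42 bases, which is the length of 1 read. Capitals mark the 15 positions at which the copies differ.
Serpina1a, chr12:103853761-103853802: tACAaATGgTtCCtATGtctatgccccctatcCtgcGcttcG
Serpina1b, chr12:103728328-103728369: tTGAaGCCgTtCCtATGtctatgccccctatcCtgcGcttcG
Serpina1c, chr12:103895098-103895139: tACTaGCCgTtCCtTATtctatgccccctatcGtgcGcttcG
Serpina1d, chr12:103763766-103763807: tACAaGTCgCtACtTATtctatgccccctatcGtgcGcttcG
Serpina1e, chr12:103947104-103947145: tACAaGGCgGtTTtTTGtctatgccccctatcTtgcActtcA
Over the whole coding region the copies were 96.3% to 98.5% identical in pairs, with 155 variable positions in 1308 aligned columns. Of the 42-base words in their transcripts, 33.8% (Serpina1b) to 76.8% (Serpina1c) also occur in another of the copies. An expected count shares such reads out between genes, so a difference between single copies is uncertain. Ces3a shared 34.9% of its words with Ces3b, Kng1 shared 20.4% with Kng2, and Mup3, Serpina3k and Mup20 shared 17.6%, 17.1% and 11.5% with other genes. Trf shared 1.84%, Serpinc1 0.488%, and the other 27 genes shared none.

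The start regions of Alb, Ahsg and Fetub are printed because Alb is the reference for the comparisons below, and because Ahsg and Fetub lie 18930 bases apart on chromosome 16 and differ in how they follow Alb. Each line holds the 250 bases before the transcription start on the plus strand, from RefSeq on GRCm38.p6, and capitals mark a match to TTGCNNAA, a core of C/EBP sites, on either strand.
Alb, chr5:90460620-90460869: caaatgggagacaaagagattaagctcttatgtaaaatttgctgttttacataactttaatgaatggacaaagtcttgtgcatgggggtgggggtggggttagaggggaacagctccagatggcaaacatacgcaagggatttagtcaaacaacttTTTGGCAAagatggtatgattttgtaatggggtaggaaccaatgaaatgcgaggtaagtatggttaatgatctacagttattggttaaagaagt
Ahsg, chr16:22891765-22892014: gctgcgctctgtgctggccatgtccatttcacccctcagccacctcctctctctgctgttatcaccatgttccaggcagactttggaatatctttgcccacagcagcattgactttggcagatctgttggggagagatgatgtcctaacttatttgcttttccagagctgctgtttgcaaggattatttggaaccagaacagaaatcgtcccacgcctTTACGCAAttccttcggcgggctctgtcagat
Fetub, chr16:22918132-22918381: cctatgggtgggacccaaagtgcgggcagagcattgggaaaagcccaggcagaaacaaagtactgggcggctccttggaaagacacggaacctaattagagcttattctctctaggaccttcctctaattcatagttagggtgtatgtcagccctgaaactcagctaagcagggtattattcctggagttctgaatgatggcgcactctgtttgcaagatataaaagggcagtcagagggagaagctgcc
The match begins 94 bases before the start of Alb and 32 bases before that of Ahsg, and Fetub has none here or before its other listed start. Other members had one without the other: Apoa1, Gc, Itih4, Vtn, Apoe, Serpina1a and Serpina1c follow it with none in these 250 bases, and Fga, C9, Serpina1d and Serpina1e have a match and do not. RefSeq start regions, taken with a further 50 bases past the start, were matched by symbol for 28 of the 39 genes. TTGCNNAA occurred on either strand in 14 of these 28 genes, in 14 of their 32 start regions and in 10.8% of 32851 start regions of all genes. The near-identical Serpina1a, Serpina1b, Serpina1d and Serpina1e were among the 14. Other motifs were searched too: GTTAAT, a part of HNF1 sites, was in 13 of the 32 regions and 7.10% of all. TGTTTAC, for FOXA, was in 4 and 3.65%, TATAAA in 8 and 13.6%, and the longer HNF1 and HNF4 motifs in 0 of the 32. A match is a run of letters and does not show that a factor binds.

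Together the 39 transcripts made up a small share of the RNA. Their summed level was 1962 ± 925 CPM in vehicle-treated and 395 ± 164 in ivermectin-treated wild-type libraries, and 215 ± 45.0 and 307 ± 162 CPM in labelled knockout libraries with vehicle and ivermectin (SD, n = 4 each). This is 0.197%, 0.0394%, 0.0213% and 0.0302% of all counts. In 30 of the 39 genes the lowest wild-type vehicle library was above all 12 other libraries, which 0.841% of all tested genes showed, a pattern close to the one that chose the genes. Fewer cells that make these transcripts and less of them per cell cannot be told apart in bulk RNA.

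Alb, the main carrier of fatty acids and many drugs in plasma, had the most counts of the 39. It stood at 923, 328, 380.5 and 685 CPM in wild-type vehicle replicates 1 to 4, at 172, 64.1, 57.7 and 112 in wild-type ivermectin, at 52.3, 17.1, 36.4 and 49.8 in labelled knockout vehicle and at 144, 27.99, 71.2 and 29.8 in labelled knockout ivermectin. The wild-type vehicle libraries were above all others, the wild-type ivermectin libraries were above those of labelled knockout vehicle, and labelled knockout ivermectin overlapped both. Libraries of 1 group still differed widely, from 328 to 923 CPM in wild-type vehicle and from 27.99 to 144 CPM in labelled knockout ivermectin. Trf, the iron carrier transferrin, was at 206, 71.4, 64.1 and 147 CPM in wild-type vehicle, 36.5, 16.99, 11.3 and 19.1 in wild-type ivermectin, 8.71, 3.51, 9.48 and 11.7 in labelled knockout vehicle and 31.1, 7.43, 13.1 and 6.47 in labelled knockout ivermectin. Its high and low libraries were largely those of Alb: replicate 1 was the highest in every group for Alb and in every group but labelled knockout vehicle for Trf, and the Trf ranges of the last 3 groups overlapped.

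**Figure D1:**
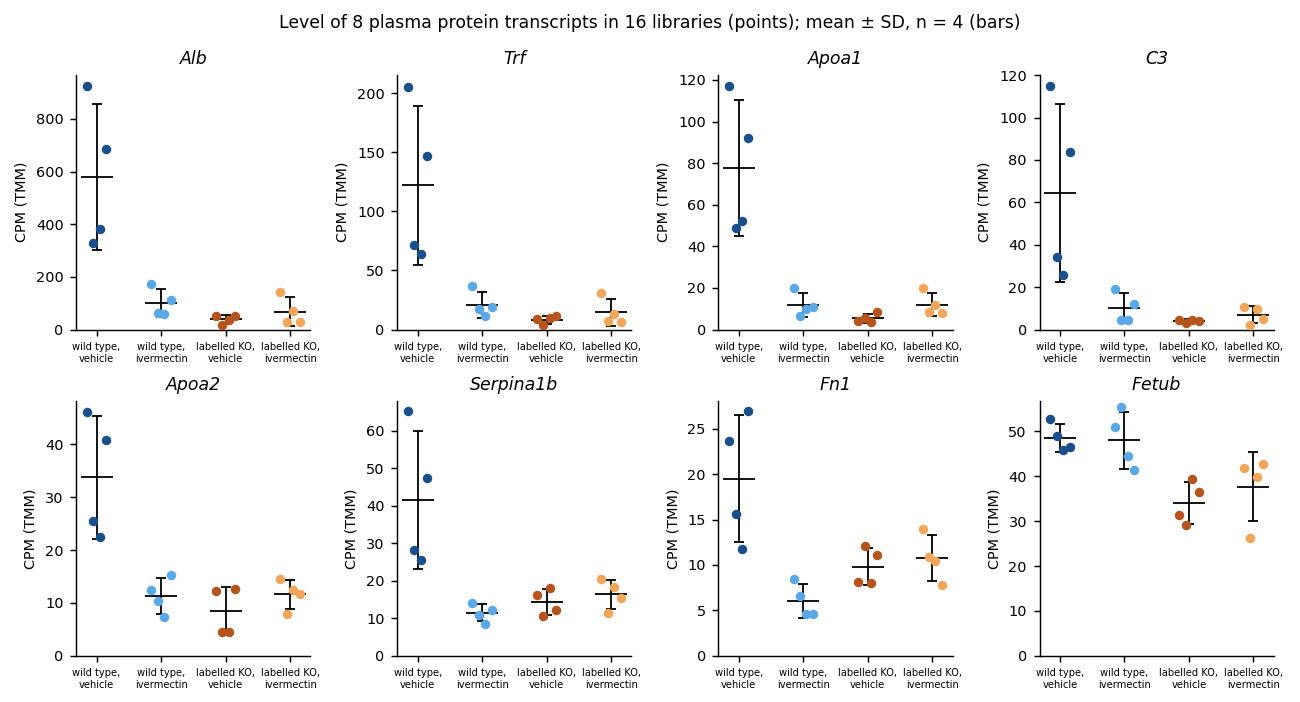
Level in CPM (y axes, linear and starting at 0) of 8 of the transcripts in each of the 16 libraries (points) by group (x axes), with the mean and SD of 4 libraries (bars). Alb, Trf, Apoa1 and C3 are high in wild-type vehicle libraries and low elsewhere, while the Fetub means lie between 34.1 and 48.5 CPM.

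To ask which genes share 1 library-to-library pattern, each gene's log2(CPM + 1) was correlated with that of Alb over the 16 libraries, and again after subtracting the group means, which leaves only differences between libraries of the same group. Alb itself was set against Apoa1. A gene was said to follow Alb when both values of Pearson's r were at least 0.7, and 20 of the 39 did, compared with 0.333% of the 10820 tested genes. The median r was 0.90 over all libraries and 0.73 within groups for the 39 genes, and -0.01 and 0.00 for all tested genes. These correlations are descriptions over 16 libraries that share their depth and their Alb value. Trf was closest, at 0.992 over all libraries and 0.957 within groups. Just inside the limit were Apoc1 and Apoa2, with 0.734 and 0.742 within groups, and just outside were Serpinc1 and Serpina3k, with 0.670 and 0.667. Over all 16 libraries 35 of the 39 reached 0.7, and the 4 below it were Fetub (0.675), Itih3 (0.696), Fn1 (0.617) and C9 (0.490).

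A second measure asked whether a gene kept a constant ratio to Alb. Its counts and those of Alb were set against 1 common ratio over the 16 libraries, and the chi-square was divided by its 15 degrees of freedom, so that a value near 1 is what counting error alone would give. The ratio was called constant below 2, which held for 23 genes. Gc at 1.91 was just under the limit, and Fga at 2.20 and Fgg at 2.27 were just over it. The 13 genes that followed Alb and had a chi-square below 2 were Alb, Trf, Gc, Hp, Hpx, Ahsg, Ces3a, Apoa1, Apoc1, C3, Fgb, Itih4 and Vtn. Another 7 followed Alb with a chi-square above it: Mup20, Apoa2, Apob, Apoe, Serpina1a, Serpina1b and Serpina1c. A further 10 were below 2 but missed a correlation of 0.7 (Apoc3, Apoc4, Apoh, Cfb, Serpina3k, Serpinc1, F2, Plg, Itih1 and Itih3). Their totals over all libraries were 21 to 348 counts, with a median of 74.5, against 65 to 3706 and a median of 259 for the 13. The measure covers all libraries at once, so a ratio can still differ between groups, as given below for Gc, Ces3a and Serpina3k. The last 9 met neither limit: Fetub, Mup3, C9, Serpina1d, Serpina1e, Fga, Fgg, Kng1 and Fn1. With the sum of the other members in place of Alb as the reference, 23 genes reached 0.7 in both correlations: Serpina1e, Serpina3k, Serpinc1 and Fga then did, and Apoa2, at 0.649 within groups, did not.

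**Figure D2:**
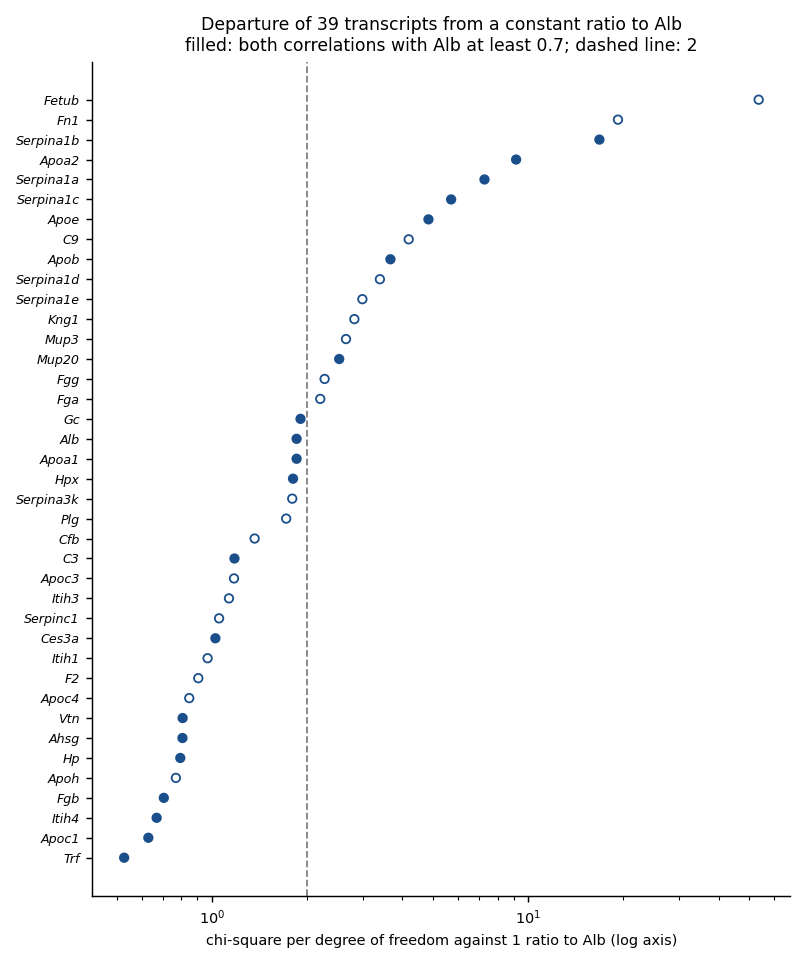
Chi-square per degree of freedom of each gene's counts against 1 ratio to Alb over 16 libraries (x axis, log scale) for the 39 genes (rows; Alb is set against Apoa1), with filled points for genes that follow Alb and a dashed line at 2. Trf is lowest at 0.528, and Fetub (53.6), Fn1 (19.2) and Serpina1b (16.8) are highest.

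Among the carriers, Trf gave 21.1 (19.05 to 23.3) counts per 100 Alb counts in wild-type vehicle libraries, 21.04 (17.5 to 25.2) in wild-type ivermectin, 21.6 (16.2 to 28.5) in labelled knockout vehicle and 21.4 (17.1 to 26.6) in labelled knockout ivermectin, each with an exact 95% interval over the summed counts of the group. The intervals of the 4 groups overlapped, while mean Alb lay between 38.9 and 579 CPM. Ahsg, the calcium-phosphate-binding fetuin-A, gave 8.404, 7.93, 8.93 and 7.203 per 100 Alb counts in the same order of groups. Hp and Hpx, which bind free haemoglobin and heme, had chi-square values of 0.794 and 1.805. Gc, the vitamin D-binding protein, was less even, with 12.5 (9.91 to 15.7) per 100 Alb counts in wild-type ivermectin and 7.603 (6.47 to 8.89) in wild-type vehicle libraries, intervals that do not overlap.

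The major urinary proteins, lipocalins that carry pheromones in mouse urine, were abundant where Alb was and scarce elsewhere. Mup20 was at 83.2, 22.5, 49.2 and 72.5 CPM in wild-type vehicle and 14.99, 0.548, 3.31 and 3.83 in wild-type ivermectin libraries, and at 4.07, 1.505, 3.49 and 9.53 and 10.7, 3.999, 2.61 and 2.59 in labelled knockout libraries with vehicle and ivermectin. The wild-type vehicle libraries did not overlap the others, and single libraries in the other groups rested on a few counts. Mup3 averaged 37.4 ± 17.2 CPM in wild-type vehicle libraries and 2.83 to 4.04 CPM in the other group means, with r of 0.892 over all libraries and 0.563 within groups. Ces3a, a carboxylesterase, had 48 counts in wild-type vehicle and 3 in wild-type ivermectin libraries, a ratio of 27.1 per unit of depth with a 95% counting interval of 8.73 to 136. Of these counts 24 and 2 were in replicate 1 of their groups. The ratio was 17.5 (5.32 to 90.8) without wild-type vehicle replicate 1 and 56.7 (9.71 to 2288) without wild-type ivermectin replicate 1. Per 100 Alb counts it gave 2.13 (1.57 to 2.84) and 0.432 (0.0889 to 1.27) in the full groups, intervals that do not overlap.

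Fetub, which encodes fetuin-B, an inhibitor of the egg protease ovastacin, was the clearest exception among the carriers. Its level was 52.8, 48.9, 45.96 and 46.4 CPM in wild-type vehicle, 50.98, 55.4, 44.4 and 41.3 in wild-type ivermectin, 31.4, 29.1, 39.4 and 36.5 in labelled knockout vehicle and 41.8, 26.3, 39.9 and 42.7 in labelled knockout ivermectin libraries. The wild-type vehicle range lay inside that of wild-type ivermectin, the labelled knockout vehicle libraries were below all wild-type libraries, and the labelled knockout ivermectin libraries reached into the range of wild-type ivermectin. Per 100 Alb counts Fetub gave 8.45 (7.25 to 9.80) in wild-type vehicle and 89.3 (75.3 to 106) in labelled knockout vehicle libraries. A straight line of Fetub CPM on Alb CPM had an intercept of 38.8 CPM (SE 2.31), that is 114% of the mean labelled knockout vehicle level, with a slope of 0.0167 (SE 0.00717) CPM per CPM of Alb. The members nearest to it on chromosome 16 had other levels: Ahsg, at 22892015 to 22899451, averaged 48.2, 8.23, 3.48 and 4.905 CPM in the 4 groups, and Kng1, which starts at 23058220, 118451 bases beyond Fetub, averaged 15.1, 2.35, 1.26 and 3.16 CPM. Fetub lies between them at 22918382 to 22939768 on GRCm38.p6.

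**Figure D3:**
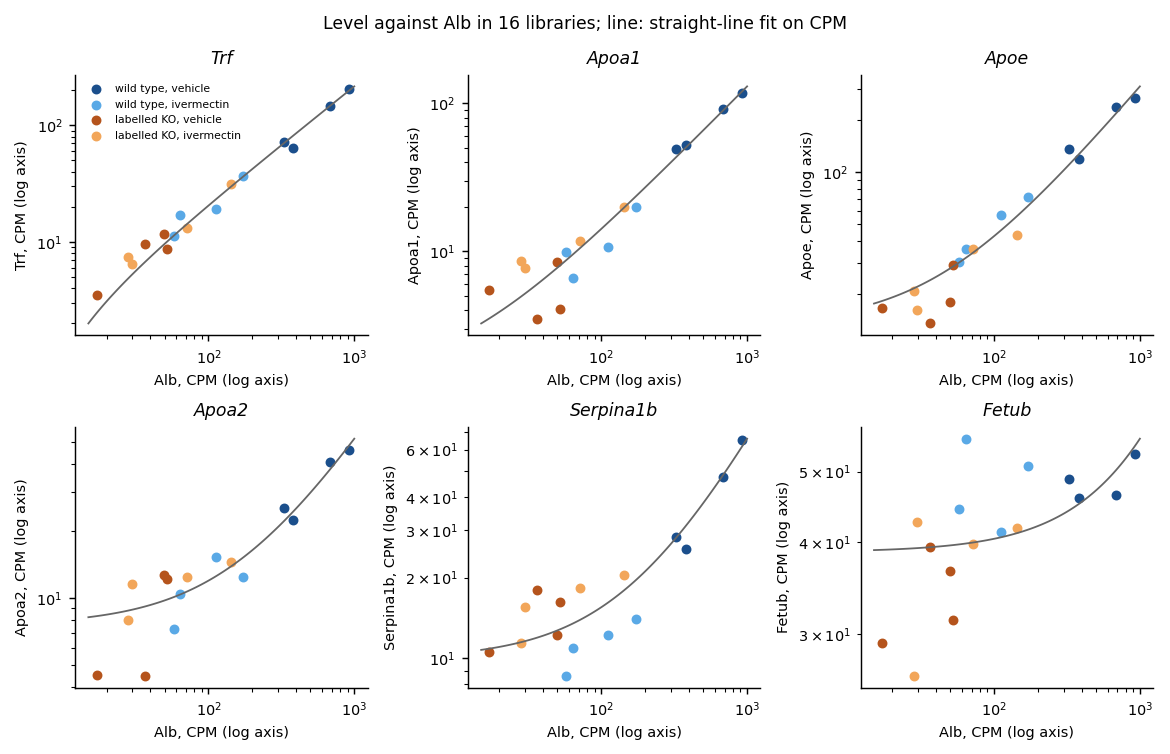
Level of 6 transcripts (y axes, CPM, log scale) against Alb (x axes, CPM, log scale) in the 16 libraries, coloured by group, with the straight line fitted on CPM. Trf lies close to its line, whose intercept is -1.27 CPM (SE 1.696), Apoe, Apoa2 and Serpina1b have lines with intercepts of 13.1, 7.55 and 9.92 CPM, and Fetub stays between 26.3 and 55.4 CPM.

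Apolipoproteins, which coat lipoprotein particles, were of both kinds. Apoa1, the main protein of high-density lipoprotein, was at 117, 48.9, 52.4 and 91.97 CPM in wild-type vehicle, 19.99, 6.58, 9.94 and 10.7 in wild-type ivermectin, 4.07, 5.52, 3.49 and 8.48 in labelled knockout vehicle and 19.8, 8.57, 11.8 and 7.76 in labelled knockout ivermectin libraries. Per 100 Alb counts it gave 13.4, 11.7, 14.1 and 17.4 in those groups, with overlapping intervals. Apoc1, Apoc3, Apoc4 and Apoh, smaller apolipoproteins and a phospholipid-binding plasma protein, had chi-square values of 0.629, 1.17, 0.848 and 0.769 on 82, 73, 21 and 88 counts in all.

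Apoe, the ligand that lets the liver take up lipoprotein remnants, was at 266, 135, 119 and 238 CPM in wild-type vehicle, 71.5, 36.2, 30.5 and 56.7 in wild-type ivermectin, 29.04, 16.6, 13.5 and 18.01 in labelled knockout vehicle and 43.4, 20.6, 35.9 and 16.2 in labelled knockout ivermectin libraries. It followed Alb closely, at 0.975 and 0.869, but its ratio was not constant: 32.99, 47.4, 49.5 and 41.7 per 100 Alb counts, lowest in wild-type vehicle libraries. Apoa2, the second protein of high-density lipoprotein, departed further, from 5.87 (4.89 to 6.998) per 100 Alb counts in wild-type vehicle to 21.6 (16.2 to 28.5) in labelled knockout vehicle libraries. The line on Alb left 7.55 CPM (SE 0.904) of Apoa2, or 89.1% of its labelled knockout vehicle mean, and 13.1 CPM (SE 3.89) of Apoe, or 67.8%. Apob, the large protein of very-low-density lipoprotein, had a small intercept of 0.533 CPM (SE 1.59) and a chi-square of 3.67.

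C3, the central protein of the complement cascade, was at 115, 34.2, 25.7 and 83.6 CPM in wild-type vehicle, 18.99, 4.38, 4.64 and 12.2 in wild-type ivermectin, 4.65, 3.01, 4.49 and 4.24 in labelled knockout vehicle and 10.7, 2.29, 9.801 and 5.18 in labelled knockout ivermectin libraries. Wild-type vehicle libraries were above the rest, and the ratio to Alb was even at 11.2, 9.94, 10.7 and 9.96 per 100 counts. Cfb, a protease of the alternative pathway, and C9, which forms the membrane pore, had 58 and 17 counts in all and were not tested. Cfb averaged 7.12 CPM in wild-type vehicle and 1.004 to 1.93 in the other groups, and C9 averaged at most 1.88 CPM in any group.

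The α1-antitrypsin copies differed in their ratio to Alb. Serpina1b was at 65.2, 28.4, 25.7 and 47.4 CPM in wild-type vehicle, 13.99, 10.96, 8.62 and 12.2 in wild-type ivermectin, 16.3, 10.5, 17.96 and 12.2 in labelled knockout vehicle and 20.4, 11.4, 18.3 and 15.5 in labelled knockout ivermectin libraries. Wild-type vehicle libraries were above all others, and both labelled knockout ranges overlapped that of wild-type ivermectin. Per 100 Alb counts Serpina1b gave 7.203 (6.103 to 8.45) in wild-type vehicle and 37.1 (29.5 to 46.4) in labelled knockout vehicle, and Serpina1a 4.94 (4.04 to 5.97) and 18.9 (13.9 to 25.3). Serpina1c gave 9.25, 7.78, 25.1 and 13.8, Serpina1d 3.56, 1.87, 6.53 and 3.602 and Serpina1e 8.404, 5.19, 13.1 and 7.203 per 100 Alb counts in the 4 groups. The intercepts were 9.92 CPM (SE 1.21) for Serpina1b and 5.23 CPM (SE 1.13) for Serpina1a, compared with 1.77 CPM (SE 1.65), -0.288 CPM (SE 1.104) and -0.862 CPM (SE 1.75) for Serpina1c, Serpina1d and Serpina1e. The part played by reads shared out between the copies was not tested.

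Serpina3k, a kallikrein-binding serpin, and Serpinc1, antithrombin, had chi-square values of 1.79 and 1.05. Serpina3k was at 97.8, 29.3, 43.8 and 73.4 CPM in wild-type vehicle and 1.16, 2.01, 2.49 and 2.65 in labelled knockout vehicle libraries. Its ratio to Alb differed between these groups, at 10.5 (9.18 to 12.1) and 5.498 (3.101 to 9.08) per 100 counts, intervals that do not overlap.

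**Figure D4:**
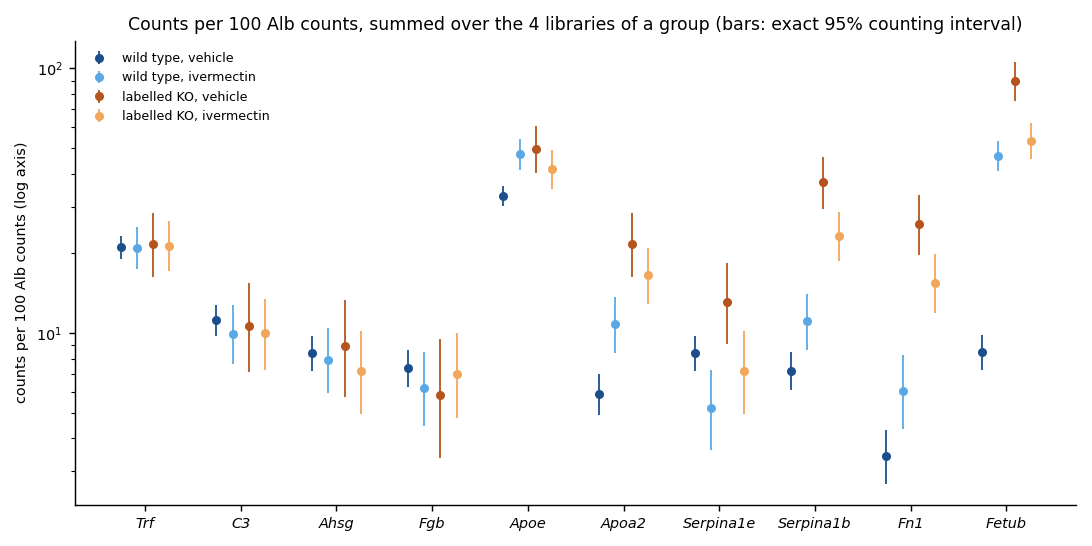
Counts per 100 Alb counts (y axis, log scale) for 10 transcripts (x axis), summed over the 4 libraries of each group, with exact 95% counting intervals. The intervals of the 4 groups overlap for Trf, C3, Ahsg and Fgb, while Fetub runs from 8.45 in wild-type vehicle to 89.3 in labelled knockout vehicle libraries.

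The 3 fibrinogen chains, which polymerise into the clot, are encoded side by side on chromosome 3. Fga averaged 55.3 ± 30.3 CPM, Fgb 42.8 ± 22.96 and Fgg 37.8 ± 24.5 in wild type with vehicle (n = 4, SD), and 4.804, 2.24 and 2.69 in labelled knockout vehicle libraries. Fgb followed Alb at 0.959 and 0.835 with a chi-square of 0.705, whereas Fga and Fgg reached 0.644 and 0.554 within groups. Prothrombin (F2), plasminogen (Plg) and kininogen (Kng1), the precursors of thrombin, plasmin and bradykinin, averaged 12.5, 19.03 and 15.1 CPM in wild-type vehicle libraries and 1.19, 1.13 and 1.26 in labelled knockout vehicle libraries. Plg and Kng1 had the weakest correlations within groups among the tested members, 0.252 and 0.215, on 119 and 108 counts in all.

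Of the proteins that bind the matrix, Itih4 and Vtn, an inter-α-inhibitor heavy chain relative and vitronectin, followed Alb with constant ratios. Itih1, a hyaluronan-binding heavy chain, had 22 counts in wild type with vehicle and 0 in both labelled knockout groups. With 3 counts over a group as the floor, its level in wild-type vehicle was 14.2 times the floor of labelled knockout vehicle and 12.5 times that of labelled knockout ivermectin. These values leave out the counting error of the 22 counts, which were 2 to 10 per library, so they are not lower limits. Itih3, another heavy chain, had 31 counts in all.

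Fn1, fibronectin, which many cell types secrete into the matrix, was at 23.6, 15.7, 11.8 and 26.9 CPM in wild-type vehicle, 8.496, 6.58, 4.64 and 4.59 in wild-type ivermectin, 8.13, 12.04, 7.98 and 11.1 in labelled knockout vehicle and 13.9, 10.9, 10.5 and 7.76 in labelled knockout ivermectin libraries. Its lowest group was wild-type ivermectin, unlike Alb, whose lowest mean was in labelled knockout vehicle, and the wild-type vehicle range overlapped both labelled knockout ranges. Per 100 Alb counts Fn1 gave 3.42, 6.05, 25.8 and 15.5, with an intercept of 7.56 CPM (SE 1.05), 76.99% of its labelled knockout vehicle mean. In all, 11 genes had an intercept above 50% of that mean. Fetub, Apoa2, Fn1, Serpina1a, Serpina1b and Apoe were those with 267 to 1412 counts in all, and Kng1, Apoc3, Apoc4, Cfb and C9 had 17 to 108.

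Per unit of transcript length, in TPM, the order of the genes shifted between groups. In wild-type vehicle libraries Alb led at 467 ± 216 TPM, followed by Apoe at 269.8 ± 102 and Apoa2 at 160.3 ± 51.4 TPM (SD, n = 4). The ranges of these neighbours overlapped, but Alb was above Apoe and Apoe above Apoa2 within each of the 4 libraries. Apoa1 at 148 ± 59.4 and Mup20 at 124 ± 57.2 TPM came next, and neither differed from the gene before it in the order by more than its SD. In labelled knockout vehicle libraries Apoa2 led at 37.8 ± 19.4 TPM, with Fetub at 35.8 ± 4.76, Alb at 29.4 ± 11.3 and Apoe at 25.9 ± 8.44 TPM, neighbours that did not differ beyond their spread. By mean TPM, Fetub was the 13th gene of 39 in wild-type vehicle libraries and the 4th, 2nd and 3rd in wild-type ivermectin, labelled knockout vehicle and labelled knockout ivermectin libraries. The rest of the order was similar, with Spearman's rho over the 39 genes of 0.903 to 0.955 between pairs of groups.

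The next comparison asks what ivermectin does to these transcripts. In the labelled knockout line none of the 34 tested members passed an adjusted p of 0.05 by edgeR's quasi-likelihood test, as for 0% of all tested genes, and 0 passed with DESeq2. By edgeR, 4 members had an unadjusted p under 0.05: Apoa1, Serpina3k, Plg and Alb. Apoa1 had the smallest adjusted p, with a log2 difference of 1.17 (SE 0.409, edgeR adjusted p = 0.594). Alb differed by 0.86 (SE 0.4199, edgeR adjusted p = 0.654) and Fetub by 0.14 (SE 0.142, edgeR adjusted p = 0.846). The values were positive in all but Apoh, that is in 33 of the 34, with a median of 0.54 against 0.00 for all tested genes, and all 39 genes overlapped between the groups, where 3.69% of tested genes did not. Replicate 1 of labelled knockout ivermectin was the highest of its group for 30 of the 38 genes with a count, and without it the Alb difference was 0.14 and the Trf difference 0.10, from 0.85 with it. Without the low-count filter Alb and Apoa1 passed, with edgeR adjusted p = 2.23e-10 and 0.0231. These p-values come from the same libraries, which overlapped for both genes, so they depend on the filter and are not read as an effect. Why the filter changed them was not tested.

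In wild-type cells, the contrast behind the choice of genes, 33 of the 34 were called lower under ivermectin by the same rule and 0 higher, beside 0.601% of all tested genes called, 0.545% lower and 0.0555% higher. The median log2 difference was -2.58, from -4.54 for Ces3a, a fitted value that depends on the few counts behind it, to 0.01 for Fetub. Alb differed by -2.48, Trf by -2.47, C3 by -2.62, Apoe by -1.94 and Fn1 by -1.63. The Fetub value was near 0 and changed sign with DESeq2 or without any one of wild-type vehicle replicates 3 and 4 and wild-type ivermectin replicates 1 and 2. The difference between the labels in this response, the interaction term, was called higher for 18 of the 34 and lower for 0, beside 0.222% of all tested genes called, 0.213% higher and 0.00924% lower, with a median of 3.12. Without labelled knockout ivermectin replicate 1 it was called for 5 members, without wild-type vehicle replicate 4 or wild-type ivermectin replicate 3 for 10, and without wild-type ivermectin replicate 2 for 11.

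Between the genotype labels in vehicle, which shares the wild-type vehicle libraries, all 34 tested genes were called lower in the labelled knockout, beside 20.7% of all tested genes called, 10.8% lower and 9.86% higher. Members that passed the filter only through the wild-type vehicle libraries, where they are high, had to differ here and under ivermectin in wild type, so the counts support nothing. The Fetub call was lost with DESeq2 (adjusted p = 0.0556) and without wild-type vehicle replicate 1 (edgeR adjusted p = 0.0519), and the Fn1 call without wild-type vehicle replicate 4 (edgeR adjusted p = 0.0645). The median log2 difference was -3.54, and values ran from -4.80 for Serpina3k to -0.50 for Fetub. Alb differed by -3.91, Serpina1b by -1.54 and Fn1 by -0.99. The 5 values nearest to 0 were those of Fetub, Fn1, Serpina1b, Serpina1a and Apoa2.

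Under ivermectin the labels were closer. This comparison shares the wild-type ivermectin libraries with the one behind the choice of genes. Here 1 of the 34 was called higher and 3 lower in the labelled knockout, beside 27.8% of all tested genes called, 13.9% in each direction, with a median log2 difference of -0.21. Fn1 was higher by 0.78 (SE 0.295, edgeR adjusted p = 0.0447). Gc differed by -1.39 (SE 0.386, edgeR adjusted p = 0.00647), Apoe by -0.75 (edgeR adjusted p = 0.0425) and Fetub by -0.37 (edgeR adjusted p = 0.0371). With DESeq2 the adjusted p was 0.224 for Apoe, 0.153 for Fetub and 0.128 for Fn1, which ended those calls. Gc missed the threshold without wild-type ivermectin replicate 1, its highest library in that group, at an edgeR adjusted p of 0.0792. Alb, at -0.56, did not pass (edgeR adjusted p = 0.256).

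Outside the 39, 16 of the genes that passed the filter followed Alb, of which 2 were on a list of further plasma proteins and 6 on a list of proteins inside hepatocytes. By the smaller of their 2 correlations over 16 libraries, the 5 nearest were the cytochromes Cyp3a11 (0.970 over all libraries, 0.890 within groups) and Cyp2e1 (0.967, 0.860), the protease inhibitors Mug1 (0.936, 0.8285) and Pzp (0.954, 0.800), and Tdo2 (0.902, 0.815), which degrades tryptophan. They averaged 12.9 to 43.0 CPM in wild-type vehicle libraries and 1.42 to 7.31 CPM in the other groups. The next in that order, Slc16a6, Plod2, Ddhd2 and Tceb3, chosen after their values were seen, were on no list, and Tceb3 averaged 95.3, 88.6, 86.2 and 80.6 CPM in the 4 groups. A list of 67 further plasma protein genes had 11 that passed the filter, of which 8 were called lower and 1 higher in labelled knockout than in wild-type vehicle libraries, beside 10.8% and 9.86% of all genes. Genes that passed the filter only through the wild-type vehicle libraries had to differ there, so nothing is read from these counts or those of the next list. The summed level of the 67 had an r with Alb of 0.95 over all libraries and 0.74 within groups. Of its genes with the highest mean TPM, Rbp4, the retinol carrier, averaged 83.4, 62.4, 61.7 and 62.8 CPM in the 4 groups, and Ambp, the α1-microglobulin precursor, 81.8, 71.6, 11.8 and 15.8 CPM, while Mup7, a major urinary protein, averaged 29.2, 4.37, 2.28 and 4.11 CPM with an r of 0.841 over all libraries. Of 52 genes for enzymes and other proteins inside hepatocytes 14 passed, 12 called lower and 2 higher in that comparison, and their summed level had an r of 0.82 over all libraries and 0.70 within groups. Adh1, an alcohol dehydrogenase, averaged 206, 185, 259 and 269.7 CPM, and Fabp1, the liver fatty acid-binding protein, which did not pass the filter, 14.8, 2.25, 1.322 and 2.27 CPM. Fabp1 had an r with Alb of 0.933 over all libraries and 0.881 within groups. Genes that did not pass the filter were not counted among the 16, although Fabp1, and Cfd and Lyz2 below, reached 0.7 in both correlations. Under ivermectin in wild-type cells 6 of the 11 and 9 of the 14 were called lower and 0 higher by edgeR, beside 0.545% and 0.0555% of all tested genes, and in the labelled knockout line no gene of the whole table was called.

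The summed level of 16 liver transcription factor genes, 7 of which passed the filter, was 311 to 398 CPM in wild-type vehicle, 331 to 369 in wild-type ivermectin, 278 to 301 in labelled knockout vehicle and 267 to 285 CPM in labelled knockout ivermectin libraries. Foxa2 and Cebpb, those with the highest mean TPM, averaged 61.9 and 33.8 CPM in wild-type vehicle libraries and 61.0 and 29.1 CPM in labelled knockout vehicle libraries. By edgeR 2 of the 7 were lower in labelled knockout than in wild-type vehicle libraries, beside 10.8% of all tested genes. Their sum had an r of 0.58 with Alb over all libraries and 0.21 within groups.

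For markers of some other tissues, too, the wild-type vehicle libraries did not overlap those labelled knockout. The summed level of 8 adipocyte markers, all 8 with a count, was 36.3 to 84.3 CPM in wild-type vehicle, 6.58 to 33.5 in wild-type ivermectin, 2.12 to 6.39 in labelled knockout vehicle and 0.571 to 8.49 in labelled knockout ivermectin libraries, led by Car3 at 30.4 CPM in wild-type vehicle. The r of this sum with Alb was 0.89 over all libraries and 0.52 within groups. Cfd, of the same list, did not pass the filter and averaged 5.68, 2.15, 0.672 and 0.595 CPM in the 4 groups. Its r with Alb was 0.897 over all libraries and 0.794 within groups. The summed level of 14 skeletal muscle markers, 12 with a count and Myh1 and Mb at 0, was 26.9 to 44.9 CPM in wild-type vehicle, 7.67 to 30.5 in wild-type ivermectin, 5.99 to 9.29 in labelled knockout vehicle and 4.57 to 8.41 in labelled knockout ivermectin libraries, with an r of 0.81 over all libraries and 0.16 within groups. A list of 10 fibroblast and endothelial genes, mostly Lyve1, was at 46.0 to 72.0, 43.6 to 61.0, 13.4 to 18.5 and 15.5 to 20.6 CPM in the same order of groups. Acinar markers were at 0.978 to 7.998 CPM, with Cpa1, Cela3b, Prss2, Pnliprp1, Cel, Amy2a5, Ctrc and Reg1 at 0 in all libraries. Macrophage markers, with Marco and Aif1 at 0, were at 44.9 to 56.7 CPM over all libraries, most of it C1qa at 40.4, 43.8, 47.4 and 47.3 CPM in the 4 groups. Cd68, of the same list, averaged 2.55, 0.843, 4.83 and 3.79 CPM, with an r with Alb of -0.346 over all libraries and -0.420 within groups. Lyz2 averaged 2.09, 0.703, 0 and 0.431 CPM, with an r with Alb of 0.936 over all libraries and 0.813 within groups. Kidney, intestine and blood cell markers were at 3.06 to 13.7, 24.1 to 36.2 and 0 to 7.87 CPM, with Umod, Kap, Aqp2, Alpi, Fabp6, Hba-a2 and S100a8 at 0. The part of these genes, and of the lower depth of the wild-type vehicle libraries, in the pattern of the plasma protein transcripts was not tested.

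Single libraries stood out for many genes at once. Wild-type vehicle replicate 1 was the highest of its group for 32 of the 39 genes and replicate 4 for the other 7. In wild-type ivermectin replicate 1 was highest for 28 of 39, whereas in labelled knockout vehicle replicate 4 led for 15 and replicate 3 for 11 of the 38 genes with a count. Alb, Apoe, C3, Serpinc1 and Vtn were highest in replicate 1 in all 4 groups, which 0.342% of all tested genes showed.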

How the data were processed

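Polyadenylated RNA from 16 samples of BetaTC6 cells was read in pairs of 42 nucleotides from 125 ng of RNA after 11 amplification cycles, per the labels' protocols. Per the submitters' processing notes the tools were bcl2fastq, STAR 2.7.2b, RSEM 1.3.3 and DESeq2 1.32.0 with build mm10, listed without role or order. The authors deposited a table of whole-number counts per gene, used for all tests. Per the file headers, RSEM's expected counts and TPM per library were also deposited. Each count equalled the expected count rounded down. TPM served only to compare levels between genes.

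Counts were fitted with edgeR 4.0.16 in R 4.3.3: filterByExpr (minimum count 10, minimum total 15), TMM factors, and a quasi-likelihood F test on a model of group means that took in every library. P-values were adjusted by the Benjamini-Hochberg method over 10820 genes, with a threshold of 0.05. In data simulated for the wild-type ivermectin comparison over 10790 genes, the fit recovered 89% of genes changed by a log2 of 1 and 100% of those changed by 2. The simulation gave all genes the same dispersion and changed only genes above a limit on mean counts. These shares therefore do not apply to members with few counts or a wide spread, such as Alb at 579 ± 278 CPM in wild-type vehicle libraries. Correlations used log2(CPM + 1), and ratios to Alb used summed counts. Replicate pairs had a chi-square per degree of freedom of 1.17 to 6.89. The members, the lists of other genes, the limits and the tests were chosen with earlier results of these data known. All 39 members are accounted for, and outside them the 5 genes nearest to Alb, up to 3 genes per list with the highest mean TPM (1 such gene is not reported here), and P2ry1 were named by rule; markers at 0 are named with their lists. Human single-cell files were not used here. Alternatives were DESeq2 1.42.0, RLE factors, other filters, rounded expected counts, only the groups compared, a replicate block, other correlations, pseudocounts, references, scalings and limits, and leaving out each library.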

Additional observations from a re-analysis of the deposited data

Results flagged for a closer look

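In 3 of 72 groups of 4 libraries examined, 1 library lay far from the other 3, while chance alone flags about 1 in 20 groups, or 3.6 here. All 3 were wild-type ivermectin replicate 1, the highest of its group: Gc at 20.49 CPM, Fgb at 13.99 CPM and Itih1 at 0.9995 CPM, the last from 2 counts.

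For 18 of the 34 tested genes the effect of ivermectin differed between the genotype labels by the interaction term of edgeR's fit, beside 0.222% of all tested genes. The term contains the contrast that chose the genes, so its values are descriptions. Without labelled knockout ivermectin replicate 1 only 5 members were called. Alb, Apoa1, Apoe, Plg and Serpina1b kept the call in every alternative in which they were tested. Of 21 alternatives each, the call was lost in 11 for Apoc1, 10 for Serpina1c, 9 for Fn1, 7 for Ces3a, 6 each for Ahsg and C3, 4 each for Fgg and Kng1, 3 for Apoa2, 2 for Mup3, and 1 each for Trf, Fgb and Serpina3k. Each is the log2 difference made by ivermectin in the labelled knockout minus that in wild type. Among carriers and enzymes it was 3.34 for Alb, 3.32 for Trf, 3.09 for Ahsg, 3.68 for Mup3 and 5.49 for Ces3a, the last a fitted value that depends on few counts. Among apolipoproteins and complement it was 3.83 for Apoa1, 2.05 for Apoa2, 4.16 for Apoc1, 2.57 for Apoe and 3.40 for C3. Serpins gave 2.04 for Serpina1b, 2.71 for Serpina1c and 4.40 for Serpina3k. Clotting and matrix genes gave 3.82 for Fgb, 3.66 for Fgg, 4.32 for Plg, 3.89 for Kng1 and 1.77 for Fn1. The values for Serpina1b and Serpina1c are uncertain because these copies share sequence.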

How the results depend on the processing

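Requiring a mean of 50 counts, which leaves few of the genes to test, gave 2 members called for ivermectin in wild type (7 genes in all, from 65), 3 for the labels in vehicle, and 2 each for the labels under ivermectin and for the interaction (4 genes in all, from 24). Without a low-count filter 2 members were called for ivermectin in the labelled knockout (23 genes in all, from 0), 7 for the labels under ivermectin and 28 for the interaction (82 genes in all), and 140 genes for ivermectin in wild type. DESeq2 called 1 member for the labels under ivermectin.

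Leaving out 1 library gave 28 to 33 members for ivermectin in wild type, 0 in each case for ivermectin in the labelled knockout, 33 to 34 for the labels in vehicle, 1 to 6 for the labels under ivermectin and 5 to 25 for the interaction. The labels under ivermectin had 1 call without wild-type ivermectin replicate 1, 2 without its replicate 2 and 1 without labelled knockout ivermectin replicate 2. The interaction had 10 without wild-type vehicle replicate 4, 11 and 10 without wild-type ivermectin replicates 2 and 3, and 5 without labelled knockout ivermectin replicate 1. Genes that follow Alb numbered 16 (without labelled knockout ivermectin replicate 1) to 23, those in constant ratio 22 to 24, and those with a high intercept 8 to 12. The ivermectin value of Fetub in wild type, 0.01, became -0.0036 with DESeq2, -0.015 and -0.016 without wild-type vehicle replicates 3 and 4, and -0.023 and -0.071 without wild-type ivermectin replicates 1 and 2, and its highest value was 0.063, without replicate 4 of the latter. The cause was not tested. Fetub in vehicle missed the threshold with DESeq2 (adjusted p = 0.0556) and without wild-type vehicle replicate 1 (edgeR adjusted p = 0.0519), and Fn1 without wild-type vehicle replicate 4 (edgeR adjusted p = 0.0645).

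Same-numbered libraries of different groups had correlations of their deviations of -0.057 to 0.145 (median 0.02). Those with different numbers had -0.127 to 0.105 (median -0.0048). Of 24 same-numbered pairs 2 were over 0.1, and of 72 other pairs 1 was. Correlations over all genes cannot decide whether the numbers pair the samples, and the main fit did not pair them. With the replicate number as a block, 33, 0, 34, 6 and 27 members were called in the order above, and the interaction gave 47 genes in all. With 21 counts for Apoc4 and 17 for C9 over all libraries, the depth allows little to be said of the rarest members.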
